A study of Mus musculus with 2 samples.

Results

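Tight junctions seal the space between neighbouring epithelial cells. Their strands are built from claudins, which either close the space or form ion pores, together with proteins of the MARVEL family such as occludin, and they are tied to actin by plaque proteins such as ZO-1. In the colon, cells are born at the crypt base and reach the surface within days, and the claudins a cell makes are known to change on the way. Described here are 10 of these genes: the pore claudins Cldn2 and Cldn15, the claudins Cldn3, Cldn4, Cldn7, Cldn8 and Cldn23, the MARVEL genes Ocln (occludin) and Marveld3, and Tjp1, which encodes ZO-1. They were listed by name, are 10 of 32285 genes in the files, and all 10 were detected.

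Whole colon of mice was profiled by single-nucleus RNA sequencing after chronic colitis from dextran sulfate sodium (DSS), given to both genotypes as 2% DSS in 4 cycles of 3 days with 4 days of recovery, up to day 28, in animals 8 to 12 weeks old. WT mice were compared with HIF-1α KO mice (Ncr1cre+ Hif-1αfl+/fl+), in which Cre is driven by Ncr1, the gene of the receptor NKp46 carried by natural killer cells and some other innate lymphoid cells, so epithelial cells were not the target of the deletion. Each genotype was 1 library made from 3 pooled animals. There was therefore no replicate, no test of genotype could be made, and every interval below is a 95% interval that covers counting error only.

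After filtering, 4884 WT nuclei with 13259430 unique molecular identifiers (UMIs, counted RNA molecules) and 4702 HIF-1α KO nuclei with 23605502 UMIs remained, a median of 2058.5 and 4197 UMIs per nucleus. The libraries shared 3 cell barcodes. The deletion could not be checked: Ncr1 had 0 UMIs in the immune-like nuclei of both libraries, and Hif1a, which other immune cells also express, was at 203 (153 to 263) and 220 (183 to 262) counts per 1000000 UMIs (CPM). A cluster of 1040 WT and 343 HIF-1α KO nuclei, 21.3% and 7.29% of the libraries, stayed unnamed and is in none of the classes below. It was shallow in both libraries (median 1400.5 and 2322 UMIs). Non-coding transcripts such as Gm42418 led it, followed by coding genes such as Gpx2. It held Cldn7 at 272 and 316 CPM and Ocln at 114 and 167. Pooled fibroblast-like and smooth muscle-like nuclei held 132 and 161, and 51.1 and 54.6. Epithelial nuclei may thus be missing from the classes below, in unequal part between the libraries.

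Nuclei were clustered without any junction gene and named from other markers, which gave 6 classes from crypt to surface: crypt base stem-like (401 WT and 336 HIF-1α KO nuclei), cycling crypt-like (439 and 316), Cftr and Htr4 crypt enterocyte-like (369 and 506), Gsdmc and Cyp2c enterocyte-like (528 and 680), absorptive colonocyte-like (254 and 384) and surface colonocyte-like (221 and 399). Goblet-like (585 and 952) and enteroendocrine-like nuclei (147 and 130) were the other 2 epithelial classes. Lgr5, the stem cell receptor for R-spondins, was at 55.3 CPM in WT and 76.5 CPM in HIF-1α KO crypt base stem-like nuclei. In surface colonocyte-like nuclei it was at 0.936 and 2.02 CPM. Lgr5 is among the markers that named the crypt base class, so these values are no separate check of the order. All levels below are CPM, the UMIs of a gene per 1000000 UMIs of that class in that library, and they were compared within a gene only. Fibroblast-like and smooth muscle-like nuclei, pooled as mesenchymal-like nuclei, served as the background, since nuclei can carry free RNA of other cells.

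The promoters of the pore claudins, lower at the surface, and of the neighbours Cldn3 and Cldn4, higher there, are shown because these pairs moved in opposite directions along the crypt. They run from 250 bases before to 50 bases after the RefSeq start site (GRCm38.p6), 5′ to 3′ on the strand of the gene, and capitals mark the letters of 4 motifs searched on both strands.
Cldn2 (pore claudin, chrX:139800558-139800857, plus strand): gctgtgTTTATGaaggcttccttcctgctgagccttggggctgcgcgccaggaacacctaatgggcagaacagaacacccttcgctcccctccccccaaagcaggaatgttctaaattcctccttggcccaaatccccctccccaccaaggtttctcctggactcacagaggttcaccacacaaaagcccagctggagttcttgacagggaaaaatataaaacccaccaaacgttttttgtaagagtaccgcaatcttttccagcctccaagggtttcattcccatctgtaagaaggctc
Cldn15 (pore claudin, chr5:136967619-136967918, plus strand): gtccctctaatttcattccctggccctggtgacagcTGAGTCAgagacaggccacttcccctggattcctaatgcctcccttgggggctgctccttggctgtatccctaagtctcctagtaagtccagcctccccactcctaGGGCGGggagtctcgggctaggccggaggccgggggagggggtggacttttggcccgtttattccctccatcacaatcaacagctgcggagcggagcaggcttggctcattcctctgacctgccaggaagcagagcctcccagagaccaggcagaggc
Cldn3 (higher at the surface, chr5:134985964-134986263, plus strand): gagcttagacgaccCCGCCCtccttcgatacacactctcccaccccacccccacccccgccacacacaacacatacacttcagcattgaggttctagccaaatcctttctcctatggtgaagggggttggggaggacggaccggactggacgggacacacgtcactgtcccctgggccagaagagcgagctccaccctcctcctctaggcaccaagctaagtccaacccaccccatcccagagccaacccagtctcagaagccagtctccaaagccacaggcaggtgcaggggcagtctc
Cldn4 (higher at the surface, chr5:134946885-134947184, minus strand): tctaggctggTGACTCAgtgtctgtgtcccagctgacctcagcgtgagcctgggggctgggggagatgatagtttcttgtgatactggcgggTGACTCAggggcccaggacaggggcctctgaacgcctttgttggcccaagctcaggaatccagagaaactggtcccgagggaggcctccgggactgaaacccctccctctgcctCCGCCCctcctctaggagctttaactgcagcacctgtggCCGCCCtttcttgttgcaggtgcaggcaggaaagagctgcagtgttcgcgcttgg
The Cldn2 window held the letters TTTATG, bound by the intestinal CDX factors, 244 bases before the start, and 11.9% of all 32851 promoters held them. The AP-1 letters TGANTCA, held by 7.81% of promoters, stood at 240 and 158 bases before the Cldn4 start and 214 before the Cldn15 start, that is, in a gene higher and in a gene lower at the surface. The GC box GGGCGG, held by 35.7%, was in the Cldn3, Cldn4 and Cldn15 windows, and the letters CAAAGNNCA of HNF4, held by 6.36%, were in none of the 4. RefSeq windows were at hand for 7 of the 10 genes, not for Cldn8, Cldn23 and Marveld3.

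In the annotation of the build of the files (mm10), Cldn3 (ENSMUSG00000070473) lay on chromosome 5 at 134986214 to 134987472 on the plus strand and Cldn4 (ENSMUSG00000047501) at 134945119 to 134946934 on the minus strand, 39279 bases apart and with no other protein-coding gene between them. Cldn3, Cldn4, Cldn8 and Cldn23 have 1 exon each, whereas Tjp1 spans 231617 bases with 31 merged exons. Cldn3 was the only member that overlapped another gene of the files, Wbscr25 on the opposite strand, and whether counting used strand is not given in the sources used here.

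Along the crypt, 7 of the 10 genes were at least 2-fold higher in surface colonocyte-like than in crypt base stem-like nuclei in both libraries with intervals apart (Cldn3, Cldn4, Cldn7, Cldn8, Cldn23, Tjp1 and Ocln), 2 were lower (Cldn2 and Cldn15), and Marveld3 passed in neither direction. Of 9037 genes with at least 50 UMIs in these classes, 10.1% were higher and 16.6% lower by the same rule. The median log2 ratio of surface over crypt base was 1.91 in WT and 1.60 in HIF-1α KO for the 10 genes, and -0.20 and -0.50 for all genes.

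Cldn2 forms a pore for cations and water. Its level was 27.7 CPM (17.5 to 41.5) in WT crypt base stem-like nuclei, 13.8 in cycling crypt-like nuclei and between 4.18 and 6.01 in the remaining classes up to the surface, where it was 4.68 (1.52 to 10.9). In HIF-1α KO it was 16.8 CPM (10.3 to 26) at the crypt base, 17.3 in cycling crypt-like, 6.21 in Cftr and Htr4 crypt enterocyte-like and from 2.02 to 2.31 in the other 3 classes, 2.02 (0.741 to 4.39) being the surface value. The log2 ratio of surface over crypt base was -2.56 (-4.32 to -1.14) in WT and -3.06 (-4.66 to -1.69) in HIF-1α KO. These levels rest on few molecules, from 5 to 34 UMIs per class, and neighbouring classes in the order overlapped throughout. Only WT crypt base stem-like nuclei lay above the interval of mesenchymal-like nuclei, which were at 5.76 (2.32 to 11.9) and 4.85 (1.32 to 12.4) CPM.

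Cldn15, the other pore claudin, carries sodium. It was at 24.1 CPM (14.7 to 37.2) in WT and 17.6 (10.9 to 27) in HIF-1α KO crypt base stem-like nuclei, and highest in HIF-1α KO cycling crypt-like nuclei at 37.2 (29.1 to 46.7), against 23.8 (16.8 to 32.6) in WT. At the surface it was 6.55 (2.63 to 13.5) and 4.71 (2.58 to 7.9), against 9.06 (4.52 to 16.2) and 10.9 (4.99 to 20.7) in mesenchymal-like nuclei. Of the 8 epithelial classes only cycling crypt-like nuclei lay above the mesenchymal-like interval, in both libraries, and crypt base stem-like nuclei did not. The log2 ratio of surface over crypt base was -1.88 (-3.36 to -0.58) and -1.90 (-2.99 to -0.86). Goblet-like nuclei held it at 20.5 and 19.4 CPM. The goblet-like cluster with the lowest goblet markers stood at 30 (19.2 to 44.6) and 32.3 (24.9 to 41.1), the cluster with the highest at 12 (5.47 to 22.7) and 4.73 (2.16 to 8.98).

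Together, Cldn2 and Cldn15 made up 19.5% (14.5 to 25.3) of the UMIs of the 7 claudins in WT crypt base stem-like nuclei and 12.3% (8.98 to 16.3) in HIF-1α KO. The share was 16.8% and 23.2% in cycling crypt-like, 8.41% and 10.6% in Cftr and Htr4 crypt enterocyte-like, 4.05% and 7.44% in Gsdmc and Cyp2c enterocyte-like and 3.14% and 2.56% in absorptive colonocyte-like nuclei. At the surface it was 1.14% (0.59 to 1.98) and 0.649% (0.397 to 1). This share does not depend on the total UMIs of a class, and its crypt base and surface intervals were apart in both libraries. It also falls where the other claudins rise, as they did at the surface. The UMIs of the 7 claudins were 221 at the crypt base and 1053 at the surface in WT, and 333 and 3084 in HIF-1α KO. The share alone therefore does not show that Cldn2 and Cldn15 were lower at the surface. In goblet-like nuclei the share was 9.71% and 9%.

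**Figure D1:**
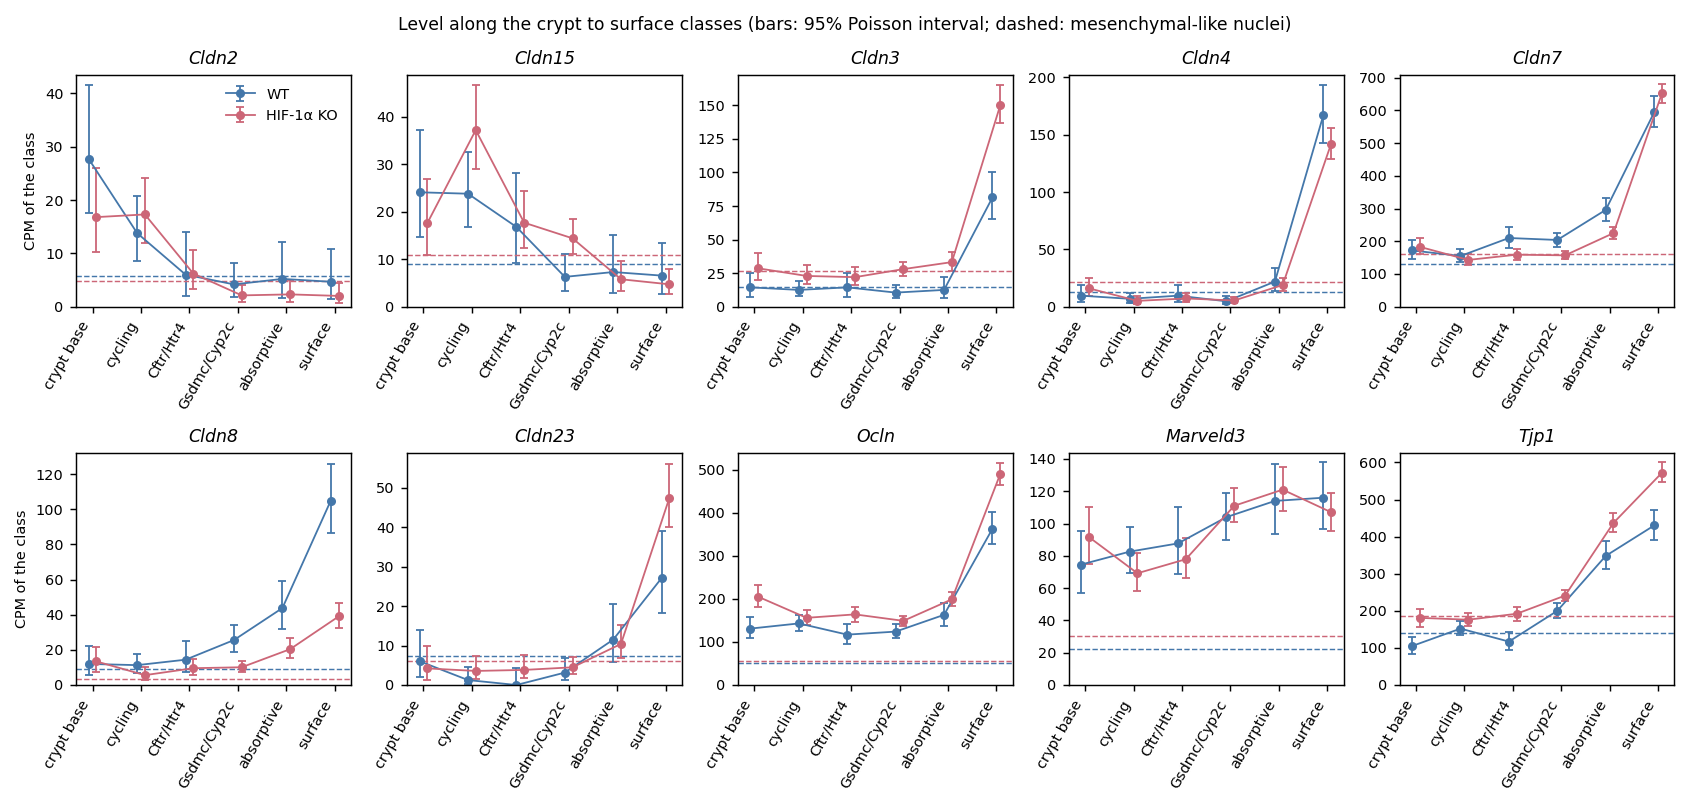
Level of each gene in CPM (vertical axis, from 0) in the 6 classes from crypt base to surface (horizontal axis), WT in blue and HIF-1α KO in red, bars being exact 95% Poisson intervals and dashed lines the level in mesenchymal-like nuclei of the same library. Cldn2 and Cldn15 are high on the crypt side. Cldn3, Cldn4 and Cldn23 are near or below the dashed line up to the absorptive class and high at the surface. Cldn8 is graded over the last 3 classes in both libraries, at lower levels in HIF-1α KO.

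**Figure D2:**
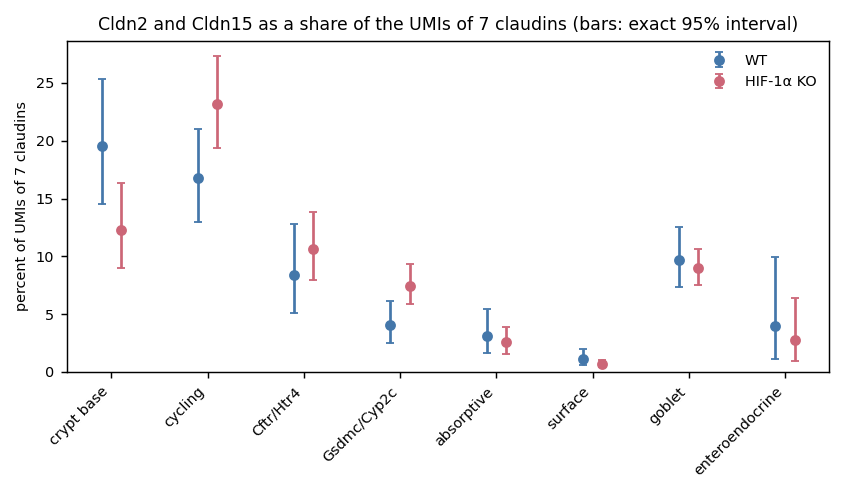
Cldn2 and Cldn15 UMIs as a percent of the UMIs of 7 claudins (vertical axis) in the 8 epithelial classes, WT in blue and HIF-1α KO in red, with exact 95% binomial intervals. The share is 19.5% and 12.3% at the crypt base and 1.14% and 0.649% at the surface.

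Cldn4, a claudin regarded as sealing, had the steepest gradient of the 10 in WT. Its CPM was 9.62 (4.16 to 19) at the crypt base and 167 (143 to 193) at the surface in WT, and 16 (9.61 to 24.9) and 142 (129 to 156) in HIF-1α KO. The classes between were low, from 4.71 to 21.9 CPM in WT and from 5.09 to 18.9 in HIF-1α KO. Mesenchymal-like nuclei held 12.4 (6.91 to 20.4) and 21.8 (12.9 to 34.5) CPM, and none of the classes between was above them with intervals apart. In HIF-1α KO the cycling crypt-like, Cftr and Htr4 crypt enterocyte-like and Gsdmc and Cyp2c enterocyte-like values of 5.09 (2.44 to 9.36), 7.17 (4.01 to 11.8) and 5.42 (3.44 to 8.13) were below them. The log2 ratio of surface over crypt base was 4.11 (3.10 to 5.35), or 17.3-fold, in WT and 3.15 (2.49 to 3.90), or 8.9-fold, in HIF-1α KO. Goblet-like nuclei held 47.5 CPM (38.1 to 58.5) and 32.9 (28 to 38.3). Within them the cluster with the highest goblet markers was at 105 (83.1 to 131) and 71 (59.5 to 84) CPM, and the other 2 clusters were at 4.99 to 16.7.

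Cldn3, its neighbour on chromosome 5 and also regarded as sealing, was at 14.4 CPM (7.46 to 25.2) and 28.6 (19.8 to 39.9) at the crypt base and at 81.4 (65.2 to 100) and 150 (137 to 165) at the surface. The log2 ratio was 2.50 (1.62 to 3.50) and 2.40 (1.89 to 2.94). In the 4 classes between, it stayed at 10.5 to 14.4 CPM in WT and 22 to 33.2 in HIF-1α KO, and mesenchymal-like nuclei were at 14.8 (8.79 to 23.4) and 26.7 (16.7 to 40.4). Of the 8 epithelial classes only surface colonocyte-like nuclei were above that interval, in both libraries.

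Cldn23, a claudin known from differentiated colonocytes, was at 6.02 CPM (1.95 to 14) and 4.2 (1.36 to 9.8) at the crypt base and at 27.1 (18.2 to 39) and 47.4 (39.9 to 56) at the surface, a log2 ratio of 2.17 (0.79 to 3.90) and 3.50 (2.24 to 5.14). The crypt base value was 5 UMIs in each library. It too was above mesenchymal-like nuclei (7.41 and 6.07 CPM) only in the surface class.

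Cldn8, a barrier claudin of distal tubules and distal colon, was graded over the last 3 classes in both libraries. In WT it was 12 CPM (5.77 to 22.1) at the crypt base, 11.3 and 14.4 in the next 2 classes, 25.6 (19 to 33.9) in Gsdmc and Cyp2c enterocyte-like, 43.8 (31.6 to 59.2) in absorptive colonocyte-like and 105 (86.3 to 126) in surface colonocyte-like nuclei. In HIF-1α KO the same classes held 13.4 (7.68 to 21.8), 5.6, 9.56, 10.1 (7.33 to 13.6), 20.4 (15.3 to 26.7) and 39 (32.3 to 46.8) CPM. The log2 ratio of surface over crypt base was 3.12 (2.19 to 4.22) and 1.54 (0.78 to 2.39), intervals that overlapped between the libraries by little. Goblet-like nuclei, at 7.55 and 5.61 CPM, were within the mesenchymal-like intervals (9.06, 4.52 to 16.2, and 3.64, 0.75 to 10.6).

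Cldn7, which sits along the whole lateral membrane and binds Epcam, was found in every epithelial class. It was at 172 CPM (145 to 203) and 183 (160 to 209) at the crypt base and at 594 (549 to 643) and 652 (623 to 682) at the surface, a log2 ratio of 1.79 (1.52 to 2.06) and 1.83 (1.63 to 2.04). Mesenchymal-like nuclei held 132 (112 to 154) and 161 (135 to 191) CPM, and in HIF-1α KO only the absorptive and surface classes were above that interval. In WT 5 classes were above it, among them Cftr and Htr4 crypt enterocyte-like nuclei at 210 (180 to 244), whereas crypt base stem-like and cycling crypt-like nuclei were not in either library.

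Ocln was above the mesenchymal-like level (51.1, 39.1 to 65.5, and 54.6, 39.8 to 73 CPM) in all 8 epithelial classes of both libraries. It was at 131 CPM (108 to 158) and 205 (180 to 232) at the crypt base and at 363 (328 to 401) and 490 (465 to 516) at the surface, a log2 ratio of 1.47 (1.16 to 1.79) and 1.26 (1.06 to 1.46). Marveld3, of the same protein family, differed by less than 2-fold between crypt base and surface. At the crypt base it was at 74.6 CPM (57.2 to 95.6) and 91.6 (75.2 to 110). At the surface it was at 116 (96.5 to 138) and 107 (95.3 to 119). Its log2 ratio was 0.64 (0.19 to 1.10) in WT, where the intervals were just apart, and 0.22 (-0.10 to 0.55) in HIF-1α KO. Its range over the 6 classes was 74.6 to 116 in WT and 69.2 to 121 in HIF-1α KO, above mesenchymal-like nuclei (22.2 and 30.3 CPM) in all of them.

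Tjp1 was at 105 CPM (83.8 to 129) and 181 (157 to 206) at the crypt base and at 430 (391 to 471) and 572 (546 to 600) at the surface, a log2 ratio of 2.04 (1.70 to 2.39) and 1.66 (1.46 to 1.88). ZO-1 is made by many cell types, and here mesenchymal-like nuclei held 141 and 187 CPM and endothelial-like nuclei 292 (241 to 351) and 363 (292 to 445). Its levels in the 3 crypt classes were not above the mesenchymal-like interval in either library, and enteroendocrine-like nuclei, at 379 (325 to 440) and 401 (358 to 448), were among the highest of the epithelial classes.

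The surface class was also the deepest, with a median of 4358 UMIs per nucleus in WT and 6139 in HIF-1α KO against 1759 and 2999.5 at the crypt base. The share of nuclei with at least 1 Cldn4 UMI was 1.75% at the crypt base and 23.1% at the surface in WT, and 5.65% and 31.3% in HIF-1α KO. With every nucleus thinned to 1000 UMIs the shares were 0.748% (0.155 to 2.17) and 10.9% (7.08 to 15.7) in WT, and 2.38% (1.03 to 4.64) and 9.77% (7.04 to 13.1) in HIF-1α KO, against 0.877% and 3.51% in fibroblast-like nuclei, whose median was 1923 and 2209 UMIs. Ocln was still found in 30.8% (24.8 to 37.3) and 36.8% (32.1 to 41.8) of thinned surface nuclei and in 11.5% (8.52 to 15) and 18.8% (14.7 to 23.3) at the crypt base. For Cldn2 the thinned shares were 3.24% (1.74 to 5.48) and 2.08% (0.842 to 4.25) at the crypt base and 1.36% and 0% at the surface, which was too few nuclei to tell the classes apart.

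As a second ordering, the 4833 nuclei of the 6 classes were ranked by a score of surface minus crypt markers and divided into 6 ranges. The ranges are cuts of a score and not cell types, and 1740 nuclei lay within 0.02 of a cut. The same 7 genes were at least 2-fold higher in the highest than in the lowest range in both libraries with intervals apart. None was lower by that rule, Cldn2 being at 16.2 and 5.58 CPM in WT and 14.1 and 1.85 in HIF-1α KO. The share of all genes that passed between these ranges was not determined. The log2 ratio of highest over lowest range was -1.53 (-3.13 to -0.18) and -2.93 (-4.38 to -1.70) for Cldn2, and -1.02 (-2.18 to 0.04) and -2.36 (-3.19 to -1.59) for Cldn15. Cldn4 was at 51.8 CPM in the range next to the highest in WT and at 17.2 in HIF-1α KO, whereas in the highest range the libraries were at 108 and 114. Cldn8 was lower in HIF-1α KO in each of the 6 ranges, with 86.4 against 34.4 CPM in the highest.

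**Figure D3:**
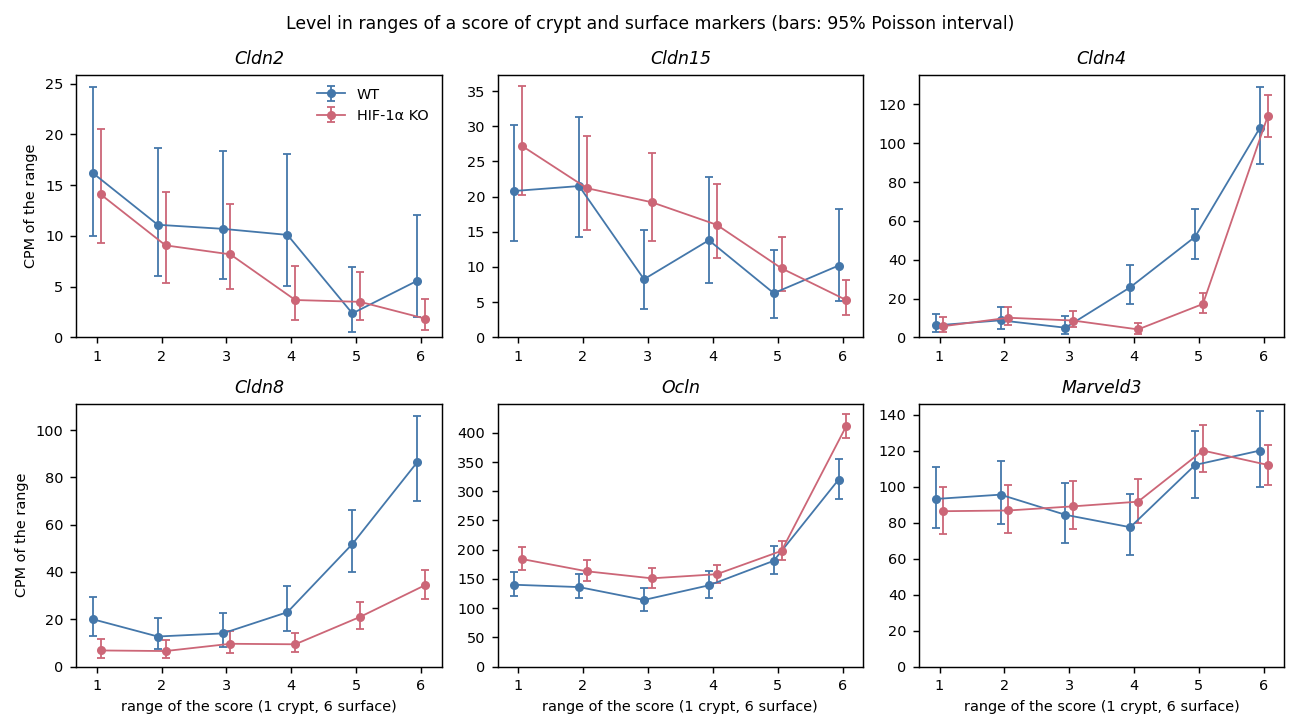
Level in CPM (vertical axis, from 0) of 6 of the genes in 6 ranges of a per-nucleus score from crypt (1) to surface (6), WT in blue and HIF-1α KO in red, with exact 95% Poisson intervals. Cldn4 in the range next to the highest is at 51.8 in WT and 17.2 in HIF-1α KO, and Cldn8 is lower in HIF-1α KO in every range.

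Between the genotypes, a gene was counted where HIF-1α KO and WT differed at least 1.5-fold with intervals apart and at least 50 UMIs in both libraries together. Of 80 pairs of gene and epithelial class, 51 had enough UMIs, 9 were higher in HIF-1α KO and 3 lower. In surface colonocyte-like nuclei 2 of 8 genes were higher and 1 lower, where 6.74% of all genes were higher and 9.61% lower. In crypt base stem-like nuclei 2 of 4 were higher (all genes 11% higher and 4.18% lower), in Cftr and Htr4 crypt enterocyte-like nuclei 1 of 6 (7.66% and 4.44%), and in goblet-like nuclei 1 of 7 (6.93% and 6.89%). In Gsdmc and Cyp2c enterocyte-like nuclei 2 of 7 were higher and 1 lower (7.18% and 5.26%), and in absorptive colonocyte-like nuclei 1 of 7 in each direction (6.4% and 6.06%). No gene passed in cycling crypt-like or enteroendocrine-like nuclei (8.34% and 3.86%, and 3.97% and 2.62%). Both libraries are single pools, so genotype, animals, tissue piece and library preparation cannot be told apart.

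Cldn8 was the gene lower in HIF-1α KO in all 3 cases. It was 105 CPM in WT and 39 in HIF-1α KO in surface colonocyte-like nuclei, a log2 ratio of -1.43 (-1.81 to -1.04), 43.8 and 20.4 in absorptive colonocyte-like nuclei (-1.10, -1.71 to -0.48) and 25.6 and 10.1 in Gsdmc and Cyp2c enterocyte-like nuclei (-1.34, -1.96 to -0.72). Both clusters of the latter class were in the same direction, at 15.3 (9.32 to 23.6) and 7.31 (4.4 to 11.4) CPM in the larger and 48.2 (32.3 to 69.2) and 14.6 (9.34 to 21.7) in the smaller. Across the alternatives the surface value stayed between -1.51 and -0.76. The share of thinned surface nuclei with Cldn8 was 7.24% (4.19 to 11.5) and 4.01% (2.31 to 6.43), intervals that overlapped, and before thinning 26.2% and 18.8%. Crypt base stem-like nuclei did not share the difference, at 12 and 13.4 CPM (log2 ratio 0.16), where the level was near background. The ratio was below 0 in 6 of the 8 epithelial classes and above 0 in 2. In the lowest score range Cldn8 was at 20 (13.1 to 29.3) and 6.8 (3.62 to 11.6) CPM. It was at 24.5 (17.4 to 33.7) and 7.71 (2.83 to 16.8) in the large unnamed cluster. Mesenchymal-like nuclei held 9.06 and 3.64, with overlapping intervals. The part of free RNA in the difference was not tested.

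Cldn8 is known to differ along the length of the colon, and genes of regional position also differed between the libraries. Hoxb13, a marker of the most distal gut, was at 46.1 CPM (41.9 to 50.6) in WT and 33.6 (31.2 to 36.2) in HIF-1α KO over the epithelial classes. No other posterior gene was lower in HIF-1α KO with intervals apart. Hoxd13 was at 9.14 (7.32 to 11.3) and 12.3 (10.8 to 13.9) and Hoxa13 at 9.98 (8.07 to 12.2) and 12.1 (10.7 to 13.7). Hoxd9 was at 0.105 (0.00266 to 0.585), from 1 UMI, and 1.06 (0.662 to 1.6). Hoxa11 (1.05 and 0.768), Hoxd11 (7.88 and 7.73) and Hoxd12 (0.21 and 0.048) had lower values in HIF-1α KO, with overlapping intervals. The sum of 8 posterior Hox genes was 76.7 (71.2 to 82.5) and 70.2 (66.7 to 73.9) CPM and that of 7 anterior Hox genes 12.2 (10.1 to 14.6) and 5.71 (4.73 to 6.84). In surface colonocyte-like nuclei the posterior sum was 154 (132 to 180) and 126 (113 to 139), and in mesenchymal-like nuclei it was 120 and 118. The anterior sum was far higher in mesenchymal-like nuclei than over the epithelial classes, at 79.9 (64.8 to 97.4) and 103 (82.4 to 127). Fibroblast-like and smooth muscle-like nuclei each made up a smaller share of the HIF-1α KO library. The part of free RNA in the epithelial difference of the anterior sum was not tested. The Hox lists were added after Cldn8 was seen, and the part of colon position in its level was not tested.

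Cldn3 was higher in HIF-1α KO in all 8 epithelial classes by log2 ratios from 0.61 to 1.42, and passed the rule in 4: 81.4 and 150 CPM in surface colonocyte-like (0.89, 0.55 to 1.23), 12.5 and 33.2 in absorptive colonocyte-like (1.41, 0.53 to 2.41), 10.5 and 28 in Gsdmc and Cyp2c enterocyte-like (1.42, 0.73 to 2.18) and 20.5 and 36.3 in goblet-like nuclei (0.82, 0.31 to 1.37). It was also higher where an epithelial claudin should be absent, at 14.8 and 26.7 CPM in mesenchymal-like and 17.8 (7.15 to 36.6) and 59.8 (33.5 to 98.6) in endothelial-like nuclei. Outside the surface class no whole class was above the mesenchymal-like interval in either library. Within goblet-like nuclei, the cluster with the highest goblet markers was above it in HIF-1α KO, at 53.6 (43.7 to 65.1) CPM against 30.6 (19.4 to 45.9) in WT, and the other 2 clusters were at 9.99 to 29.3. The part of free RNA in the difference was not tested. At the surface the log2 ratio with the mesenchymal-like level subtracted was 0.89, the same to this precision as without.

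Cldn23 was higher in HIF-1α KO surface colonocyte-like nuclei, at 27.1 and 47.4 CPM (log2 ratio 0.81, 0.22 to 1.44), and had fewer than 50 UMIs in all other classes. Cldn15 passed in Gsdmc and Cyp2c enterocyte-like nuclei, at 6.28 (3.24 to 11) and 14.4 (11 to 18.5) CPM (1.20, 0.29 to 2.22), within the mesenchymal-like intervals of 9.06 (4.52 to 16.2) and 10.9 (4.99 to 20.7). Cldn2 had 50 UMIs only in cycling crypt-like nuclei, with 13.8 (8.63 to 20.8) and 17.3 (12 to 24.2) CPM. It had 0 UMIs in WT enteroendocrine-like nuclei, which allows up to 6.46 CPM, the level of 3 UMIs.

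The ratios of Tjp1 and Ocln were above 0 in all 8 classes, from 0.08 to 0.79 and from 0.02 to 0.64, although Tjp1 in Gsdmc and Cyp2c enterocyte-like and goblet-like nuclei and Ocln in enteroendocrine-like nuclei fell below 0 under other settings. The median over all genes was 0.17 in crypt base stem-like and 0.09 in Cftr and Htr4 crypt enterocyte-like nuclei. Tjp1 passed in crypt base stem-like nuclei, at 105 and 181 CPM (log2 ratio 0.79, 0.42 to 1.16), and in Cftr and Htr4 crypt enterocyte-like nuclei, at 117 (94.5 to 142) and 192 (173 to 211) CPM (0.72, 0.39 to 1.05), both near the mesenchymal-like 141 and 187. Ocln passed in crypt base stem-like nuclei only, at 131 and 205 CPM (0.64, 0.31 to 0.98). At the surface the ratios were 0.41 (0.26 to 0.57) for Tjp1 and 0.43 (0.27 to 0.60) for Ocln. Cldn4, Cldn7 and Marveld3 passed in no class, with log2 ratios from -0.53 to 0.75, from -0.41 to 0.13 and from -0.45 to 0.30.

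**Figure D4:**
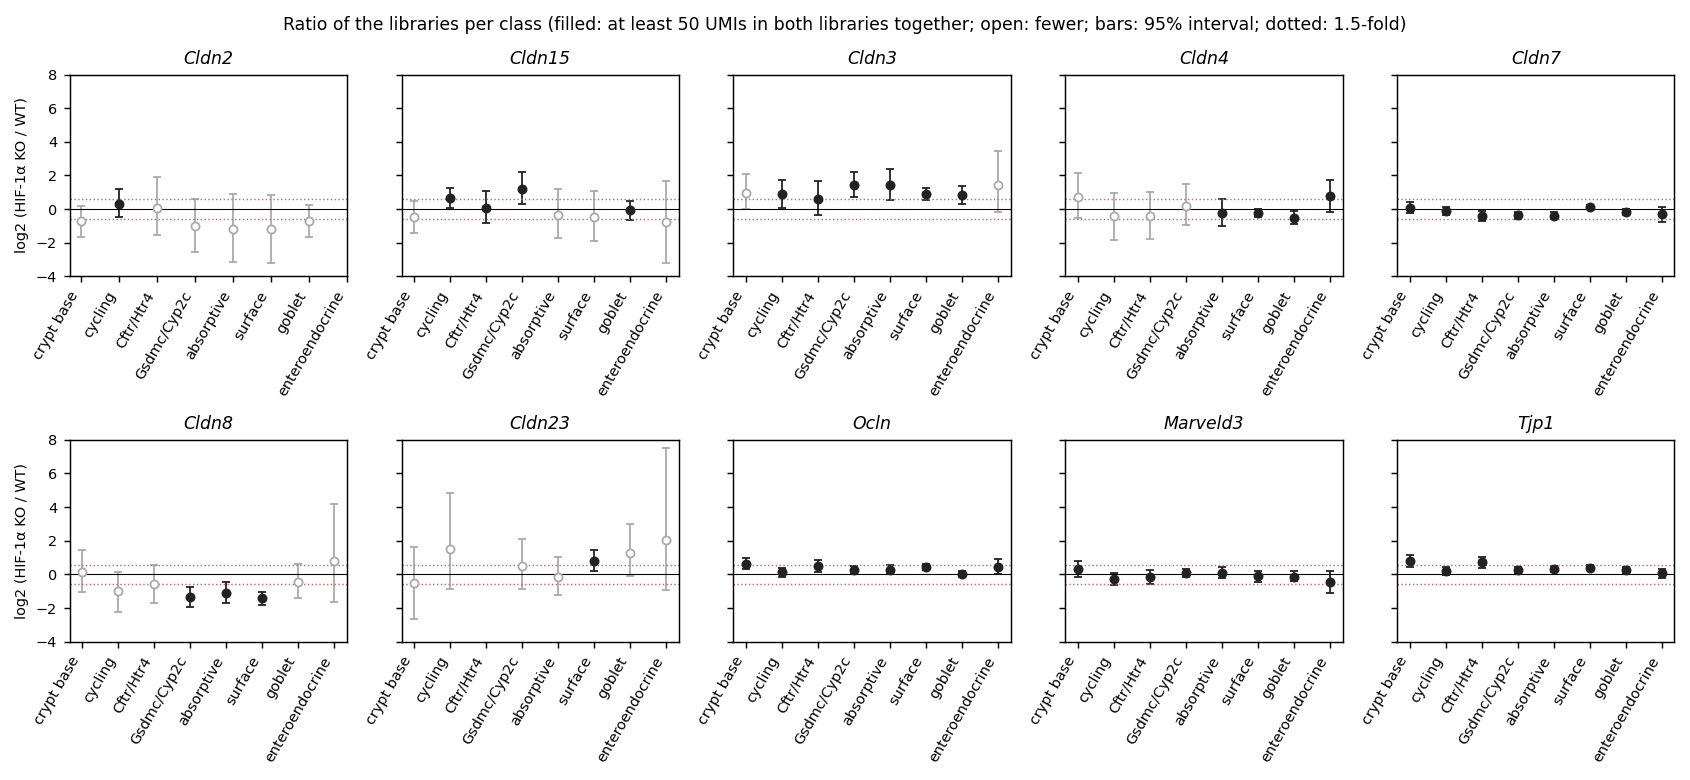
Log2 ratio of HIF-1α KO over WT (vertical axis) for each of the 10 genes in the 8 epithelial classes (horizontal axis). Filled points have at least 50 UMIs in both libraries together, open points fewer, bars are exact conditional 95% intervals, dotted lines mark 1.5-fold, and pairs with 0 UMIs in a library are not drawn. The filled Cldn8 points lie at -1.43 to -1.10, and all Cldn3 points lie above 0.

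The other junction genes were set against the same shares of all genes, 10.1% higher and 16.6% lower at the surface. Of 13 other membrane proteins of tight junctions, 7 had enough UMIs and 4 were at least 2-fold higher at the surface: F11r (JAM-A, an adhesion molecule; log2 ratio 1.62 in WT and 1.17 in HIF-1α KO), Cxadr (the coxsackievirus and adenovirus receptor; 2.27 and 1.45), Igsf5 (JAM4; 1.67 and 1.44) and Crb3 (an apical polarity protein; 1.26 and 1.48). None was lower. Of 19 plaque and polarity genes tested, 2 were higher, Pard6b (3.04 and 1.67) and Mpp5 (1.13 and 1.29), and 2 were lower, Ybx3 (-1.82 and -1.65), whose product binds ZO-1, and Amot (-2.48 and -3.15), a share near that of all genes for the higher and below it for the lower. Tjp3, which encodes the plaque protein ZO-3, was at 0.29 and 0.21 and did not pass, nor did Cgn (cingulin, 0.81 and 0.72), Lsr (angulin-1 of tricellular junctions, -0.18 and -1.10) or Cdh1 (E-cadherin, 1.22 and 0.96).

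Of 11 tested genes of adherens junctions and claudin partners, 3 were higher at the surface, Cdh17 (1.95 and 1.80), Epcam (1.74 and 1.61) and Ctnnb1 (1.13 and 1.57), and Nectin1 was lower (-3.01 and -3.20). Of 8 genes of junction contractility, 3 were higher, Actn4 (1.87 and 1.76), Myh14 (1.64 and 1.68) and Mylk, the myosin light chain kinase (1.75 and 2.74), and none was lower. Both lists are short, and all genes stood at 10.1% higher and 16.6% lower. Only 2 of 17 other claudin genes in the files reached 50 UMIs, and neither passed. Cldn5, the claudin of vessels, was at 90.5 CPM (54.5 to 141) and 61 (26.3 to 120) in lymphatic endothelial-like nuclei, and Cldn1 had 0 UMIs there and at both ends of the crypt.

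**Figure D5:**
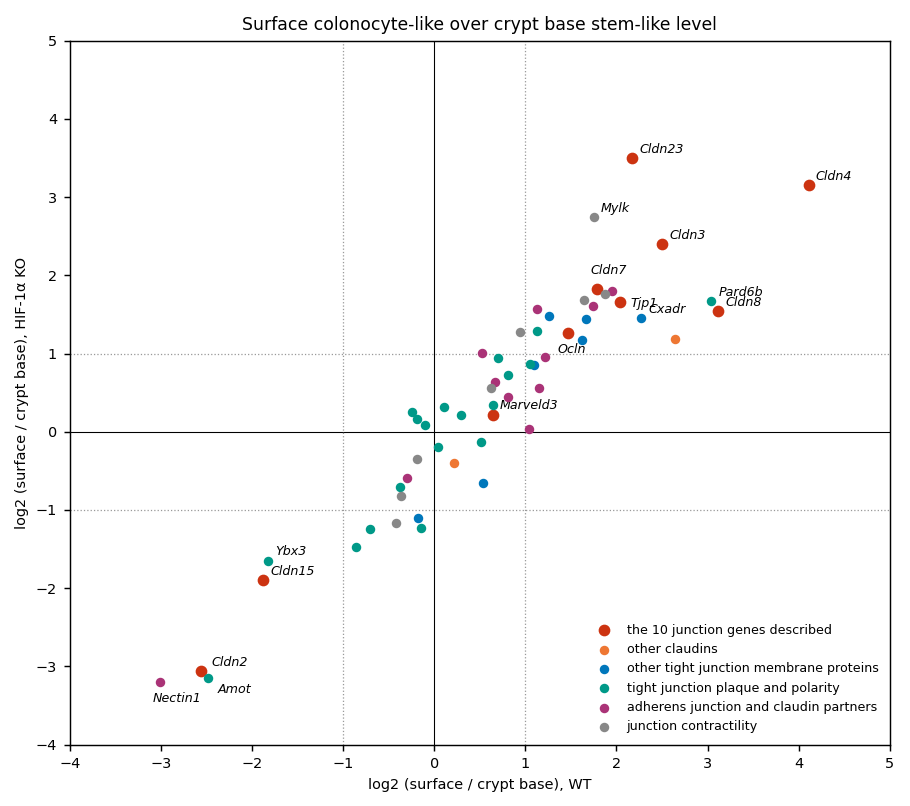
Log2 ratio of surface colonocyte-like over crypt base stem-like level in WT (horizontal axis) and HIF-1α KO (vertical axis) for the 10 genes (red) and the other junction genes with at least 50 UMIs (colours by list), dotted lines marking 2-fold. Cldn4 and Cldn23 are at the upper right, and Cldn2 and Cldn15 at the lower left beside Nectin1, Amot and Ybx3.

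Between the genotypes, Marveld2 (tricellulin, which seals corners where cells meet) passed as higher in HIF-1α KO in 5 of 8 classes, with 28.9 and 63.9 CPM at the crypt base (log2 ratio 1.15, 0.47 to 1.87) and 42.1 and 40.7 at the surface (-0.05, -0.55 to 0.48). Igsf5 passed in 4 classes and was at 414 and 607 CPM at the surface (0.55, 0.40 to 0.71), Cxadr and Tjp3 in 3 each, and Nectin2 and Prkcz in 2 each. They were picked from 72 other junction genes because they passed. How many of all genes passed in as many classes was not determined, here or for Magi2 below. The classes come from the same 2 libraries, so passing in several of them is not repeated support. At the crypt base, 3 of 6 other membrane proteins and 2 of 18 plaque and polarity genes were higher. So were 1 of 11 adherens junction and 0 of 8 contractility genes, against 11% of all genes. At the surface the numbers were 0 of 7, 1 of 18, 0 of 10 and 0 of 8, against 6.74%. Lower in HIF-1α KO at the crypt base were 0 of 6, 1 of 18, 0 of 11 and 0 of 8, against 4.18% of all genes. At the surface 1 of 7, 1 of 18, 0 of 10 and 0 of 8 were lower, against 9.61%. The membrane protein lower there was Crb3 (log2 ratio -0.62, -1.04 to -0.20). Magi2, a scaffold protein, was lower in HIF-1α KO in 7 of 8 classes, with 31.8 and 7.4 CPM at the surface (-2.10, -2.95 to -1.29), and was at 297 and 344 CPM in enteroendocrine-like nuclei, where it did not pass (0.21, -0.09 to 0.51). Magi2 was far higher in mesenchymal cells, at 692 (624 to 765) and 802 (711 to 901) CPM in fibroblast-like and 573 (516 to 633) and 438 (380 to 501) in smooth muscle-like nuclei. Fibroblast-like nuclei made up 4.67% (WT) and 2.53% (HIF-1α KO) of nuclei and smooth muscle-like nuclei 5.65% and 2.76%, and the part of free RNA in the Magi2 difference was not tested.

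The genes whose level was most like that of each member were sought over 22 points, 11 classes in each of 2 libraries, among 9856 genes. These correlations are descriptions: points of a library share its depth and free RNA. Cldn2 was most like Lig1 (Pearson r 0.90), Pole (0.87) and Gins1 (0.86), which act in DNA replication, and Cldn15 like Taf1a and Terf2 (both 0.81). Cldn8 was most like Car1 (0.90), a carbonic anhydrase, Cldn3 like Sprr2a3 (0.96), Cldn4 like 4930539E08Rik (0.92) and Noct (0.90), Cldn7 like Pmaip1 (0.93) and Cldn23 like Lgalsl and Ces2e (both 0.93). Ocln was most like Rhpn2 (0.92), Tjp1 like Cables1 (0.92) and Marveld3 like Pak1 (0.94).

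The lower surface level of Cldn2 and Cldn15 rests on 5 to 14 UMIs at the surface and 20 to 23 at the crypt base. With nuclei thinned to 1000 UMIs, with all barcodes, with classes set by each nucleus's own marker score, or with the mesenchymal-like level subtracted, neither passed the 2-fold rule in both libraries.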

How the data were processed

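Nuclei from frozen whole colon were sequenced with 10x Genomics chemistry, and per the labels the authors made UMI counts per gene and barcode with Cell Ranger 7.0.1 on mm10. The deposited counts held 9668 barcodes, the number of nuclei the study analysed. Whether introns were counted is not given in the sources used here. Nuclei with 400 to 5000 detected genes and at most 10% mitochondrial UMIs were kept (9586). No doublet caller was run. Libraries were integrated and clustered with Seurat 5.3.0 (R 4.3.3; 2000 variable genes, 30 components, resolution 1) after leaving out 82 junction genes. A cluster of at least 100 nuclei was named from its best marker list if at least 3 markers were at least 2-fold higher and in at least 10% of its nuclei, a rule set after the data were seen. The members and lists were chosen with earlier results of these data known.

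UMIs were summed per library and class. CPM have exact Poisson intervals, ratios exact conditional intervals and shares exact binomial (Clopper-Pearson) intervals; sums of 0 were set against 3 UMIs. No test was run with 1 library per genotype. Described were all 10 genes and, of other junction lists, the genes with most UMIs, at most 6 per list, past 2-fold between surface and crypt base in both libraries, or past 1.5-fold between libraries in at least 2 classes, with Epcam, Cdh1, Tjp3, Cgn, F11r, Marveld2, Lsr, Cldn5 and Cldn1 whatever their values. Amot, Hif1a, Ncr1 and the Hox genes were added after their values were seen. Likeness used log2 CPM with 10 CPM added, for genes with at least 200 UMIs. Ratios were tested on simulated data. Alternatives were TMM factors (edgeR 4.0.16), equal weights of nuclei, thinning, other clustering and filters, and other folds.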

Additional observations from a re-analysis of the deposited data

Results flagged for a closer look

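The Cldn7 ratio differed in sign between classes, by small amounts. HIF-1α KO over WT was 0.13 (log2, 0.00 to 0.27) in surface colonocyte-like nuclei, where the unrounded interval lay just above 0, and it was below 0 in Cftr and Htr4 crypt enterocyte-like (-0.41), Gsdmc and Cyp2c enterocyte-like (-0.38), absorptive colonocyte-like (-0.40) and goblet-like nuclei (-0.20). The difference between classes was not tested, none of these values reached 1.5-fold, and without integration the surface value was -0.03.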

How the results depend on the processing

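No paired analysis was possible because each genotype is 1 library. For surface over crypt base, 20 values under up to 8 alternatives gave 124 values within counting error, 36 that moved and 0 that changed direction. The count of genes higher at the surface stayed between 5 and 7, and that of genes lower was 2, against 0 when thinned to 1000 UMIs, with all barcodes, with the own marker score or with the mesenchymal-like level subtracted, and 1 at resolution 2, without the deepest 5% of nuclei or with TMM factors. In 4 score ranges 2 genes were lower, against 0 in 6. Without integration and at resolution 0.5 no cluster could be named crypt base, so no ratio was given.

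For HIF-1α KO over WT, 750 alternative values gave 678 within counting error, 65 that moved and 7 that changed direction. The 9 higher pairs became 4 when thinned, without integration, with the own marker score or with the mesenchymal-like level subtracted, 5 at resolution 0.5 and 3 at a fold of 2, and the 3 lower pairs became 6 with the own marker score and 9 with the level subtracted. The direction changed for Cldn7 at the surface without integration (-0.03) and in goblet-like nuclei when thinned (0.02), for Cldn15 in Gsdmc and Cyp2c enterocyte-like nuclei with the own marker score (-0.12), for Tjp1 there without integration (-0.07) and with the level subtracted (-0.15) and in goblet-like nuclei with the level subtracted (-0.21), and for Ocln in enteroendocrine-like nuclei when thinned (-0.16). The cause was not tested.

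Depth limits Cldn2, Cldn15 and Cldn23 most, with few UMIs per class, and WT had fewer UMIs per nucleus than HIF-1α KO.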
